A study of Homo sapiens with 4 samples.

Results

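Transcription factors that drive epithelial-mesenchymal transition (EMT) were followed by RNA-seq in WT cells and in ZCCHC4 KO1 cells. The members, SNAI1, SNAI2, TWIST1, TWIST2, ZEB1, ZEB2, FOXC1, FOXC2, PRRX1 and TCF4, were chosen by symbol and matched to the Entrez identifiers of the expression table through RefSeq. Of these 10 factors, 9 had a row among the 16658 genes of the table, and PRRX1 was not analysed here. There were 4 libraries, 2 of wild-type and 2 of ZCCHC4 knockout genotype, from untreated cells labelled HepG2, which is an established human liver cancer line. The knockout was made with CRISPR/Cas9, and ZCCHC4 KO1 is 1 of the knockout lines of the study, so what belongs to the loss of ZCCHC4 and what belongs to the line cannot be told apart. ZCCHC4 encodes a methyltransferase that places m6A on 28S rRNA. Nothing in the labels says whether the 2 libraries of a group came from separate cultures, and p-values then measure only the spread between these libraries, which may be technical.

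EMT is the program by which epithelial cells lose their junctions and polarity and take on a migratory, mesenchymal state. The SNAIL proteins (SNAI1, SNAI2) and the ZEB proteins are zinc finger repressors that bind E-boxes in the promoters of epithelial genes such as CDH1, which encodes E-cadherin. TWIST1, TWIST2 and TCF4 are basic helix-loop-helix (bHLH) proteins that bind E-boxes as dimers, FOXC1 and FOXC2 are forkhead factors, and PRRX1 is a homeobox factor. Cancer cells may use only some of them, and TGF-beta signalling is among the best known signals that switch them on.

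The values are FPKM, that is, fragments scaled to transcript length and to the number of mapped fragments, so that levels of different genes can be compared per length. The deposited values summed to between 512417 and 565199 per library. The sequencing depth is unknown, and the 2 libraries of a group limit the precision. The test took in the 10726 genes with an FPKM of 1 or more in 2 or more libraries. Differences were taken on the scale of log2(FPKM + 1), which understates changes of low genes. They were called at an adjusted p below 0.05 from limma. ZCCHC4 itself was at 7.22 and 5.44 FPKM in the WT libraries and at 1.08 and 2.29 FPKM in the ZCCHC4 KO1 libraries, a log2 difference of -1.48 (standard error 0.287, adjusted p = 0.0448 from limma). It was not called with a pseudocount of 0.1, with no filter on low values or without ZCCHC4 KO1 replicate 1. The label HepG2 was checked against hepatocyte genes. Of 24 such markers, 16 had a row, and CPS1 alone, an enzyme of the urea cycle, had an FPKM of 1 or more in each WT library. AFP, HNF4A and SERPINA1 stayed at or below 0.08 FPKM in all 4 libraries. In all, 15 of the 16 were below 1 FPKM in every library, which goes against the label, since HepG2 cells are known to express hepatocyte genes such as AFP.

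ZCCHC4 KO1 cells had less SNAI2 and FOXC2 and more TWIST1 than WT cells, while SNAI1, TWIST2, ZEB1, ZEB2 and FOXC1 were not called. In bulk RNA, fewer cells expressing a gene and less RNA per cell cannot be told apart. Of the 9 factors with a row, 8 were tested, and TCF4 was below the filter. SNAI2 and FOXC2 passed the filter through the WT libraries only, so that they had to be lower in ZCCHC4 KO1 cells to be as they are. At an adjusted p below 0.05, 1 factor was higher and 2 were lower, against 1.5% of all tested genes higher and 4.48% lower. With a 2-fold change or more also required, no factor was higher and 2 were lower, against 1.1% and 3.63% of all tested genes. The same 2 were at least 2-fold lower in mean FPKM without any test, where 2.07% of the tested genes were higher and 5.93% lower. At the thresholds of the study, an adjusted p below 0.001 together with a 2-fold change or more, no factor was called by limma, where 0.0186% of the tested genes were higher and 0.0559% lower. Counting libraries alone, the groups did not overlap for 2 factors that were higher (TWIST1 and FOXC1) and 3 that were lower (SNAI2, FOXC2 and TWIST2), against 23.1% and 28.5% of the tested genes. With 2 libraries per group the smallest two-sided p of an exact permutation test is 0.333, so no such test was used for single genes.

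**Figure D1:**
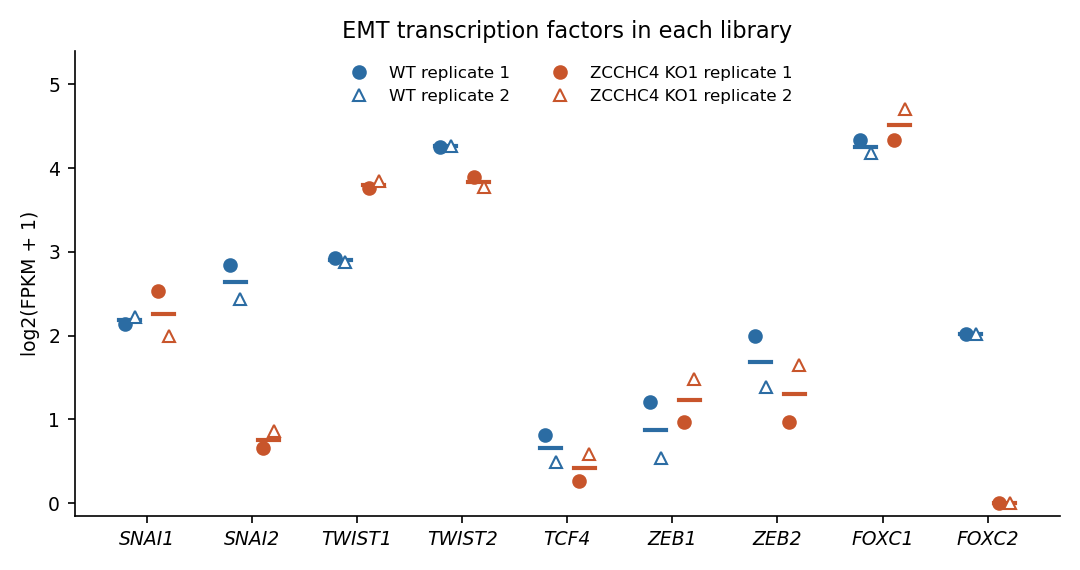
Level of each EMT transcription factor with a row, as log2(FPKM + 1), in the 2 WT libraries (blue) and the 2 ZCCHC4 KO1 libraries (orange); circles are replicate 1, triangles replicate 2 and bars the mean of a group. FOXC2 lies at 0 in both ZCCHC4 KO1 libraries, SNAI2 is below 1 FPKM in both, and TWIST1 lies higher in both than in either WT library.

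SNAI2, also known as SLUG, is the SNAIL-family repressor known for its part in neural crest and tumor cell migration. SNAI2 stood at 6.17 FPKM in WT replicate 1, 4.43 in WT replicate 2, 0.58 in ZCCHC4 KO1 replicate 1 and 0.81 in ZCCHC4 KO1 replicate 2. The groups lay far apart, with the knockout libraries low. The mean fell from 5.30 ± 1.23 (SD, n = 2) to 0.695 ± 0.163 (SD, n = 2), 7.63-fold lower. The log2 difference was -1.88 (standard error 0.222, adjusted p = 0.0128 from limma). SNAI2 passed the filter through the WT libraries only, so its direction was fixed by the filter. SNAI1, the family member best known as a direct repressor of CDH1, was at 3.40 and 3.68 FPKM in WT and at 4.76 and 2.98 FPKM in ZCCHC4 KO1. The values of the ZCCHC4 KO1 libraries enclosed those of WT, and the log2 difference of 0.08 had a 95% interval from -0.52 to 0.68. Within each library, the ratio of SNAI2 to SNAI1 was 1.81 and 1.2 for WT, against 0.122 and 0.272 for ZCCHC4 KO1. SNAI2 was thus the more abundant of the pair in both WT libraries and the less abundant in both ZCCHC4 KO1 libraries.

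ZEB1 and ZEB2, which repress epithelial genes and are themselves held down by the miR-200 family, were low. ZEB1 was at 1.31 and 0.45 FPKM in WT and at 0.96 and 1.80 FPKM in ZCCHC4 KO1. ZEB2 was at 2.99 and 1.61 FPKM in WT and at 0.95 and 2.13 FPKM in ZCCHC4 KO1. For both genes the groups overlapped, and the libraries of a group lay apart. The log2 difference was 0.36 for ZEB1 (95% interval -0.38 to 1.09) and -0.39 for ZEB2 (95% interval -1.18 to 0.41), intervals that take in changes of more than 2-fold in one direction.

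TWIST1, a bHLH factor of the early mesoderm and of metastasis models, was higher in ZCCHC4 KO1 cells. TWIST1 stood at 6.63 FPKM in WT replicate 1, 6.36 in WT replicate 2, 12.56 in ZCCHC4 KO1 replicate 1 and 13.34 in ZCCHC4 KO1 replicate 2. The groups were far apart relative to the spread within them. The mean rose from 6.50 ± 0.191 (SD, n = 2) to 12.95 ± 0.552 (SD, n = 2), 1.99-fold higher. The log2 difference was 0.90 (standard error 0.174, adjusted p = 0.0446 from limma). The call lay close to the threshold and was lost with no filter (adjusted p = 0.0751 from limma) and without WT replicate 1, WT replicate 2 or ZCCHC4 KO1 replicate 1 (adjusted p = 0.310, 0.347 and 0.0618 from limma). Across these fits the log2 difference stayed between 0.87 and 0.94.

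Its paralog TWIST2 was at 18.02 and 18.24 FPKM in WT and at 13.86 and 12.70 FPKM in ZCCHC4 KO1. The knockout libraries both lay under the WT ones, but the difference was not called, with a log2 difference of -0.42 (95% interval -0.81 to -0.04, adjusted p = 0.186 from limma). The ratio of TWIST1 to TWIST2 within a library, which does not depend on the scaling of libraries, was 0.368 and 0.349 for WT, against 0.906 and 1.05 for ZCCHC4 KO1. The sum of the pair was 24.65 and 24.60 FPKM for WT, against 26.42 and 26.04 FPKM for ZCCHC4 KO1. TCF4, a class I bHLH protein (E2-2) that pairs with tissue-specific bHLH factors, was at 0.76 and 0.41 FPKM in WT and at 0.20 and 0.50 FPKM in ZCCHC4 KO1. These groups overlapped, and TCF4 was not tested.

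FOXC2, a forkhead factor of mesenchymal and lymphatic vessel development, was at 3.05 and 3.04 FPKM in WT and was listed at 0 in both ZCCHC4 KO1 libraries. It had the smallest adjusted p of the factors (adjusted p = 0.00551 from limma). FOXC2 passed the filter through the WT libraries only, so its direction was fixed by the filter and this rank is no support. No fold change is given against a group listed at 0. FOXC1, its paralog, was among the most abundant of the factors, at 19.10 and 17.15 FPKM for WT, against 19.11 and 25.10 FPKM for ZCCHC4 KO1. The groups only just did not overlap, and the log2 difference of 0.26 was not called (95% interval -0.20 to 0.72, adjusted p = 0.476 from limma). FOXC2 lies over the antisense gene FOXC2-AS1 and ZEB1, ZEB2, TCF4 and TWIST1 each overlap an annotated noncoding gene. Whether reads were assigned by strand is not given in the sources used here, so reads of these genes and of an overlapping partner cannot be told apart.

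**Figure D2:**
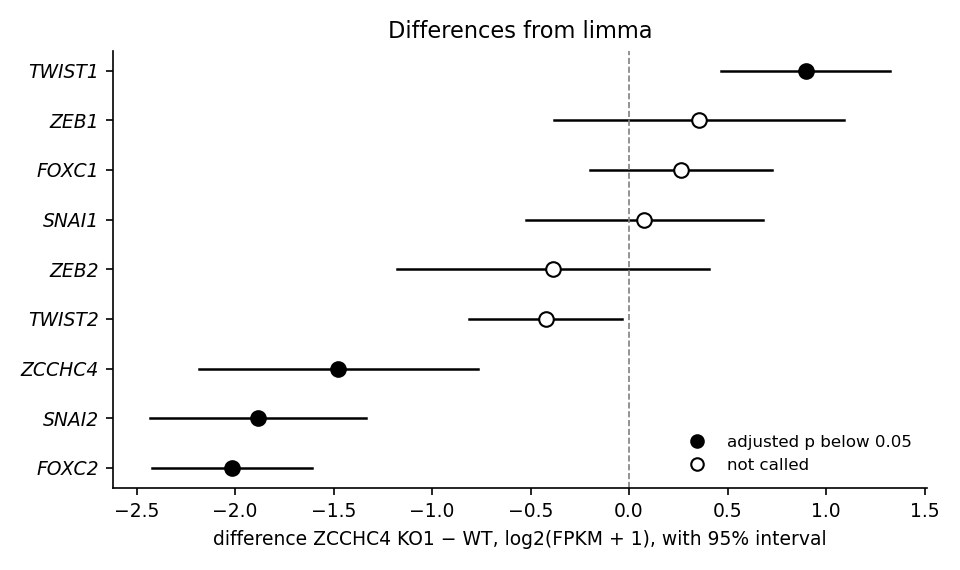
Difference between ZCCHC4 KO1 and WT on the log2(FPKM + 1) scale for the 8 tested EMT transcription factors and ZCCHC4, with 95% intervals from limma; filled points have an adjusted p below 0.05. SNAI2 and FOXC2 lie near -2 with intervals below 0, TWIST1 at 0.90 above 0, and the intervals of SNAI1, ZEB1, ZEB2 and FOXC1 cross 0. The position of FOXC2, listed at 0 in ZCCHC4 KO1, depends on the pseudocount.

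In order of level, FOXC1 and TWIST2 stood first in WT with means of 18.1 FPKM each, and their libraries overlapped. TWIST1, SNAI2, SNAI1, FOXC2, ZEB2 and ZEB1 followed, each without overlap with the one before, although ZEB2 at its highest (2.99 FPKM) came close to FOXC2 at its lowest (3.04 FPKM). TCF4 came last and overlapped ZEB1. In ZCCHC4 KO1 cells FOXC1 was first with 22.1 ± 4.24 FPKM (SD, n = 2). TWIST2 at 13.3 ± 0.820 and TWIST1 at 12.95 ± 0.552 FPKM (SD, n = 2 each) came next and did not differ beyond their spread. SNAI1 followed, then ZEB2 and ZEB1, whose libraries overlapped, then SNAI2, TCF4 and FOXC2. FOXC1 and TWIST2 together made up 60.4% to 63.9% of the summed FPKM of the 9 factors in the 4 libraries. TWIST1 made up 10.8% and 11.5% of the sum in WT and 23.7% and 22.5% in ZCCHC4 KO1, and SNAI2 10.0% and 8.0% for WT, against 1.09% and 1.36% for ZCCHC4 KO1. The sum itself was 61.4 and 55.4 FPKM in WT and 53.0 and 59.4 FPKM in ZCCHC4 KO1, with overlapping groups.

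The libraries of a group differed along the GC content of transcripts, and the factors fell into GC-poor and GC-rich ones. ZEB1, ZEB2, TCF4 and SNAI2 had a GC content of 38.2% to 41.4% in their longest transcript, and the other 5 one of 56.3% to 63.2%. Across 10559 tested genes, the step from replicate 1 to replicate 2 had a Spearman correlation with GC content of 0.706 for WT and -0.764 for ZCCHC4 KO1, given as a description since genes are not independent. ZEB1 was lower in WT replicate 2 than in replicate 1 by a log2 difference of -0.67 and higher in ZCCHC4 KO1 replicate 2 by 0.51. For ZEB2 these differences were -0.61 and 0.68, and for SNAI2 -0.40 and 0.20. Among the GC-rich factors, SNAI1 (0.09 and -0.53) and TWIST2 (0.02 and -0.12) had the opposite signs. FOXC1 (-0.15 and 0.38) and TWIST1 (-0.05 and 0.08) had the signs of the GC-poor factors, and FOXC2 hardly moved (-0.004 and 0). With the trend on GC content removed from each library, the same 3 factors were called, with log2 differences of -1.79 for SNAI2 and 0.81 for TWIST1 (adjusted p = 0.00141 and 0.0311 from limma). In that fit 6.53% of the 10559 tested genes were called higher and 12.3% lower, against 1.5% and 4.48% before. SNAI2 and FOXC2 had passed the filter through the WT libraries only.

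**Figure D3:**
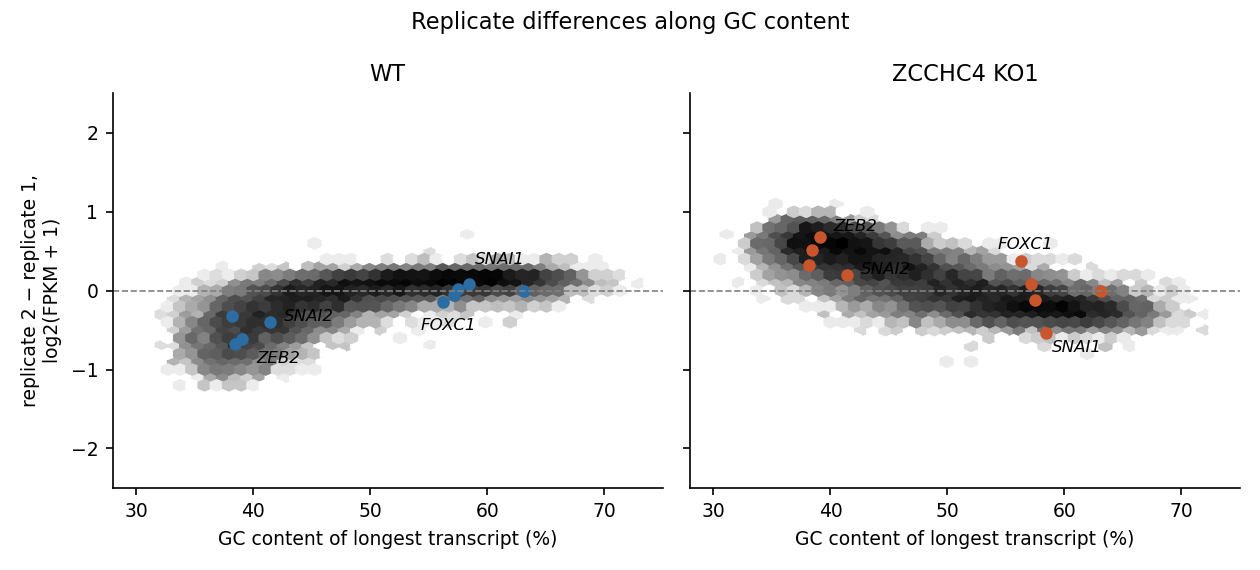
Difference between replicate 2 and replicate 1 on the log2(FPKM + 1) scale against the GC content (percent) of the longest transcript, in WT (left) and ZCCHC4 KO1 (right); grey hexagons hold all tested genes, darker with more genes on a log scale, and coloured points are the 9 factors. The GC-poor factors, ZEB2 and SNAI2 among them, lie below 0 in WT and above 0 in ZCCHC4 KO1.

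The factors were also set beside the genes that lie nearest to them. SNAI2 lies on chromosome 8 of GRCh38 from 48917598 to 48921429. Of its 20 nearest tested genes, within 6.38 Mb, 19 had a lower value in ZCCHC4 KO1, with a median log2 difference of -0.52, and 3 were called lower (HGSNAT, MCM4 and ATP6V1H). The lowest of these neighbours was at -1.76, and SNAI2 at -1.88 lay below all of them. FOXC2 lies on chromosome 16 from 86566829 to 86569728, and its 20 neighbours were split 10 to 10 around a median of 0.03, with 2 called lower, FOXF1 at -1.65 and JPH3 at -1.43. TWIST1 lies on chromosome 7 from 19113047 to 19117636, with a neighbour median of -0.04 and 1 neighbour, HDAC9, called higher. HDAC9 passed the filter through the ZCCHC4 KO1 libraries only. The neighbours of the other factors had medians of -0.01 for SNAI1, 0.07 for TWIST2, -0.34 for ZEB1, -0.41 for ZEB2 and -0.36 for FOXC1, against -0.03 over all tested genes. ZEB1 and FOXC1 thus had positive log2 differences beside neighbours that were mostly negative, 18 of 20 and 16 of 20. Of the 20 neighbours, 4 were called lower around ZEB2, 4 around FOXC1 and 2 around ZEB1, and 1 was called higher around TWIST2. Over all tested genes 4.48% were called lower and 1.5% higher, and 5708 of 10726 had a negative difference. Copy number was not measured, and its part in these values was not tested.

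The genes around the factors in the EMT network were grouped into 9 further lists by role. Upstream, the TGF-beta list of ligands, receptors and SMADs had 10 tested genes, with a median log2 difference of -0.34. Over all tested genes 1.5% were called higher and 4.48% lower, and in this list none was higher and 2 were lower. Both were receptors. TGFBR1, the type I receptor kinase, fell from 18.02 and 10.17 FPKM in WT to 1.23 and 2.36 FPKM in ZCCHC4 KO1, and TGFBR2, the type II receptor that binds the ligand, from 10.52 and 9.33 to 2.20 and 3.54 FPKM (adjusted p = 0.0195 and 0.0264 from limma). Both receptors were lower in each knockout library than in either WT library, as were 28.5% of all tested genes, and both lost their call with no filter (adjusted p = 0.0705 and 0.0775 from limma). SMAD4, the shared SMAD that carries the signal to the nucleus, was at 7.31 and 5.78 FPKM in WT and at 2.75 and 4.8 FPKM in ZCCHC4 KO1, and was not called (adjusted p = 0.214 from limma). The inhibitory SMAD7 was not called either (log2 difference -0.35, adjusted p = 0.351 from limma).

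Of 17 tested genes of other upstream signals, 2 were higher and 2 lower, against 1.5% and 4.48% of all tested genes. Their median was 0.06. BMP2, a bone morphogenetic protein, fell from 35.68 and 30.48 to 6.02 and 7.79 FPKM, and FGFR1, a fibroblast growth factor receptor, from 5.25 and 6.34 to 1.05 and 1.08 FPKM (adjusted p = 0.00708 and 0.0121 from limma). The Notch ligand JAG2 rose from 5.98 and 6.25 to 13.24 and 12.22 FPKM, and BMP4 from 0.72 and 0.51 to 2.36 and 1.90 FPKM (adjusted p = 0.0401 and 0.0454 from limma). BMP4 passed the filter through the ZCCHC4 KO1 libraries only, so its direction was fixed by the filter. Both rises lost their call with no filter (adjusted p = 0.0725 and 0.0782 from limma) and without WT replicate 1, WT replicate 2 or ZCCHC4 KO1 replicate 1 (adjusted p = 0.316, 0.252 and 0.0760 for JAG2 and 0.0983, 0.154 and 0.110 for BMP4 from limma).

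Among partners of the factors, 2 of 17 tested corepressors and chromatin partners were higher and none lower, against 1.5% and 4.48% of all tested genes. These were AJUBA and WTIP, LIM proteins that bind SNAIL proteins, with log2 differences of 0.93 and 0.87 (adjusted p = 0.0240 and 0.0454 from limma). Without WT replicate 1 or WT replicate 2 both calls were lost (adjusted p = 0.0823 and 0.0532 for AJUBA and 0.256 and 0.124 for WTIP from limma), as they were with no filter (0.0522 and 0.0874). WTIP also lost its call without ZCCHC4 KO1 replicate 1 (adjusted p = 0.0772 from limma) and without the variance trend (0.0593). PRMT5, an arginine methyltransferase that AJUBA brings to SNAIL, was at 123.63 and 138.98 FPKM in WT and at 197.23 and 171.00 FPKM in ZCCHC4 KO1 and was not called, nor was the histone methyltransferase SUV39H1 (adjusted p = 0.117 and 0.108 from limma). None of 5 tested bHLH partners and ID inhibitors was called. ID2, a dominant-negative inhibitor of bHLH dimers, came nearest, with 11.76 and 8.93 FPKM in WT and 4.63 and 4.58 FPKM in ZCCHC4 KO1 (adjusted p = 0.0526 from limma). It was called lower in 7 of 13 alternatives, with log2 differences from -1.19 to -0.825. TCF3, the E protein that dimerizes with TWIST proteins, was at 55.09 and 60.19 FPKM in WT and at 72.73 and 68.38 FPKM in ZCCHC4 KO1 (adjusted p = 0.263 from limma), and ID1 and ID3 had log2 differences of 0.26 and -0.46. None of 11 tested kinases, ubiquitin ligases and deubiquitinases that act on SNAIL-family proteins was called. A negative difference was seen in 9 of the 11, against 5708 of all 10726 tested genes. The smallest adjusted p were those of LATS2, a Hippo kinase, FBXL5, an F-box protein, PSMD14, a proteasome deubiquitinase, and CSNK1E, a casein kinase (0.0778, 0.102, 0.120 and 0.192 from limma).

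Of 13 other tested transcription factors that promote EMT, 1 was higher and 2 were lower, against 1.5% and 4.48% of all tested genes. FOXQ1, a forkhead factor, fell from 2.98 and 3.91 to 0.22 and 0.11 FPKM and TBX3, a T-box repressor, from 10.09 and 9.45 to 2.40 and 2.93 FPKM (adjusted p = 0.00874 and 0.0151 from limma). FOXQ1 passed the filter through the WT libraries only, so its direction was fixed by the filter. FOSL1, an AP-1 subunit also called FRA1, rose from 25.32 and 24.91 to 45.56 and 39.87 FPKM (adjusted p = 0.0443 from limma), a call lost with no filter, without the variance trend and without WT replicate 1, WT replicate 2 or ZCCHC4 KO1 replicate 1 (adjusted p = 0.266, 0.272 and 0.0770 from limma). PRRX2, the paralog of PRRX1, was at 0.84 and 1.06 FPKM in WT and at 2.56 and 2.03 FPKM in ZCCHC4 KO1 (adjusted p = 0.0834 from limma).

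On the opposing side stand transcription and splicing factors that keep the epithelial state. Of 21 in the list, 18 had a row, 10 of these were below 1 FPKM in all 4 libraries, and 7 were tested. GRHL2, a grainyhead factor that represses ZEB1, was at 0.01 FPKM in WT replicate 1 and listed at 0 in the other 3 libraries. ELF3, an epithelial ETS factor, was the only one called, where 1.5% of all tested genes were called higher. It rose from 19.76 and 21.51 to 52.86 and 44.90 FPKM, 2.37-fold, with a log2 difference of 1.2 (standard error 0.152, adjusted p = 0.0153 from limma). KLF4, a Krueppel-like factor, had a log2 difference of -0.77, and EHF, another epithelial ETS factor, and RBM47, an RNA-binding protein, had 0.64 and 0.29 (adjusted p = 0.0931, 0.239 and 0.461 from limma).

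Genes that the factors repress or induce were taken as targets. Of 26 tested epithelial targets, 1 was called lower, CLDN1, and none higher, against 4.48% and 1.5% of all tested genes. A positive difference was seen in 19 of the 26, against 5018 of all 10726 tested genes. The median log2 difference was 0.31 against -0.03 over all tested genes. CLDN1, a tight junction claudin, fell from 3.16 and 2.32 to 0.41 and 0.62 FPKM (adjusted p = 0.0260 from limma, and 0.0628 with no filter). CLDN1 passed the filter through the WT libraries only, so its direction was fixed by the filter. CDH1 and EPCAM, both defining epithelial adhesion genes, were below the filter. CDH1 was at 0.11 and 0.19 FPKM in WT and at 0.17 and 0.60 FPKM in ZCCHC4 KO1, and EPCAM was at 0.03 FPKM in WT replicate 2 and listed at 0 in the other 3 libraries. The keratins KRT8 and KRT18 of simple epithelia were abundant in all 4 libraries, KRT18 with 1294.42 and 1451.78 FPKM in WT and 2580.45 and 1888.78 FPKM in ZCCHC4 KO1 (adjusted p = 0.135 from limma). CRB3, an apical polarity protein, was at 0.64 and 0.76 FPKM in WT and at 2.08 and 1.64 FPKM in ZCCHC4 KO1, the smallest adjusted p of the positive targets (0.0769 from limma). CRB3 passed the filter through the ZCCHC4 KO1 libraries only, so its direction was fixed by the filter. It was called higher in 3 of 12 alternatives, which is therefore no support for a rise. The difference of MAL2, a protein of apical transport, was not called (log2 -1.01, adjusted p = 0.0819 from limma). MAL2 was called lower in 7 of 13 alternatives, with log2 differences from -1.31 to -0.711.

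The E-box that SNAIL and ZEB proteins prefer reads CAGGTG, or CACCTG on the other strand. Both spellings were searched in promoters from RefSeq (GRCh38.p14), windows of 300 bases from 250 before to 50 after each annotated start, where a gene with several starts gives several windows. At least 1 such E-box was found in 16 of 28 windows of the epithelial targets (57.1%, from 19 of the 34 genes) and in 3 of 27 windows of the mesenchymal targets (11.1%, from 20 of 35 genes), against 20.6% of all 35116 windows and 18.1% of those of tested genes. At least 3 were found in 4 of the 28 epithelial windows, those of CRB3, CLDN7, AP1M2 and PATJ, and in 0.635% of all windows. Windows of 6 of the 10 factors were matched, and the only E-boxes of this kind lay in 2 windows of ZEB1. A match is a description of letters and not a bound site. The epithelial targets were listed as genes that the factors repress, so their share of E-boxes is not independent of that choice. CDH1 and EPCAM were among the epithelial targets without a window. The 250 bases before the start are printed for CRB3 (chr19:6464021-6464270, plus strand) and CLDN7 (chr17:7262479-7262728, minus strand), the epithelial targets with most E-boxes, and for ELF3 (chr1:202010337-202010586, plus strand), the epithelial factor that rose. Each sequence runs from 5′ to 3′ on the strand of the gene, and capitals mark the E-boxes.
CRB3: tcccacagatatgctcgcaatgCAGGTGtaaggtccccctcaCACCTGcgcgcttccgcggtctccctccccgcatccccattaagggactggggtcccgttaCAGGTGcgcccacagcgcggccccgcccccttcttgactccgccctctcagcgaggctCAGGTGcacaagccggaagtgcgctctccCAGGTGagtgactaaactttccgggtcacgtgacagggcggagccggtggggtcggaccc
CLDN7: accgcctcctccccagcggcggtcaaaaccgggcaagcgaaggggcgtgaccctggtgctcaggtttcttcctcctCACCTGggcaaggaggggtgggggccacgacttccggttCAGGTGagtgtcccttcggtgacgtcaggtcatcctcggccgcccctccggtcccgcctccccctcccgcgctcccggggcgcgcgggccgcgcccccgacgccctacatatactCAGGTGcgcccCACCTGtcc
ELF3: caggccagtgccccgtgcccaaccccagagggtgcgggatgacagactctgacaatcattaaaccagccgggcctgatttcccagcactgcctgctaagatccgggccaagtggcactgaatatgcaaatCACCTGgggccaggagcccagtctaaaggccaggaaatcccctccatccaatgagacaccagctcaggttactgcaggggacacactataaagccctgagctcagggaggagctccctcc
The E-boxes of CRB3 begin 228, 208, 147, 89 and 60 bases before the start, those of CLDN7, 1 of whose 2 windows holds them and a further one after the start, 174, 135, 20 and 9 bases before it, and that of ELF3 120 bases before it. CLDN7, a claudin of tight junctions, was at 7.75 and 6.59 FPKM in WT and at 15.51 and 10.03 FPKM in ZCCHC4 KO1 (log2 difference 0.73, 95% interval 0.11 to 1.34, adjusted p = 0.157 from limma). For both CRB3 and CLDN7 the lower ZCCHC4 KO1 library was above the higher WT library, as for 23.1% of all tested genes, but neither gene was called. AP1M2 and PATJ, the other targets with at least 3 E-boxes, were not called either (log2 differences 0.31 and -0.15). The groups of PATJ overlapped. Whether E-boxes go with the direction of the differences was not tested.

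Mesenchymal targets were mostly lower in value. Of 22 tested, 8 were lower and none was higher, 18 had a negative difference, and the median log2 difference was -0.52. Over all tested genes 4.48% were called lower, and 5708 of 10726 had a negative difference. FAP, a fibroblast activation protease, fell from 6.86 and 3.31 to 0.16 and 0.21 FPKM (log2 difference -2.30, adjusted p = 0.0174 from limma). FAP passed the filter through the WT libraries only, so its direction was fixed by the filter. LOXL2, a lysyl oxidase of the matrix, fell from 88.87 and 96.62 to 38.35 and 34.68 FPKM, CD44, the hyaluronan receptor, from 102.40 and 107.23 to 46.43 and 55.90 FPKM, and FBN1, or fibrillin 1, from 10.98 and 9.93 to 1.83 and 3.27 FPKM (adjusted p = 0.00897, 0.0196 and 0.0234 from limma). The groups did not overlap for any of these 4 genes, and 28.5% of all tested genes were lower in this way. With no filter, FAP, CD44 and FBN1 lost their calls (adjusted p = 0.0631, 0.0516 and 0.0725 from limma). The other genes called lower were COL1A1, COL3A1, ITGA5 and ITGB1, with log2 differences of -1.26, -1.18, -0.84 and -1.63. Their calls with no filter are not given singly. Over all the other lists together, 15 genes were called lower, and 6 with no filter. VIM, which encodes the intermediate filament vimentin, stayed abundant, at 536.20 and 553.28 FPKM in WT and 388.61 and 413.15 FPKM in ZCCHC4 KO1, and was not called (log2 difference -0.44, 95% interval -0.77 to -0.11, adjusted p = 0.125 from limma). CDH2, or N-cadherin, was at 30.04 and 25.57 FPKM in WT and at 18.26 and 26.26 FPKM in ZCCHC4 KO1, with overlapping groups (adjusted p = 0.436 from limma). FN1, or fibronectin, was at or below 0.11 FPKM in all 4 libraries.

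**Figure D4:**
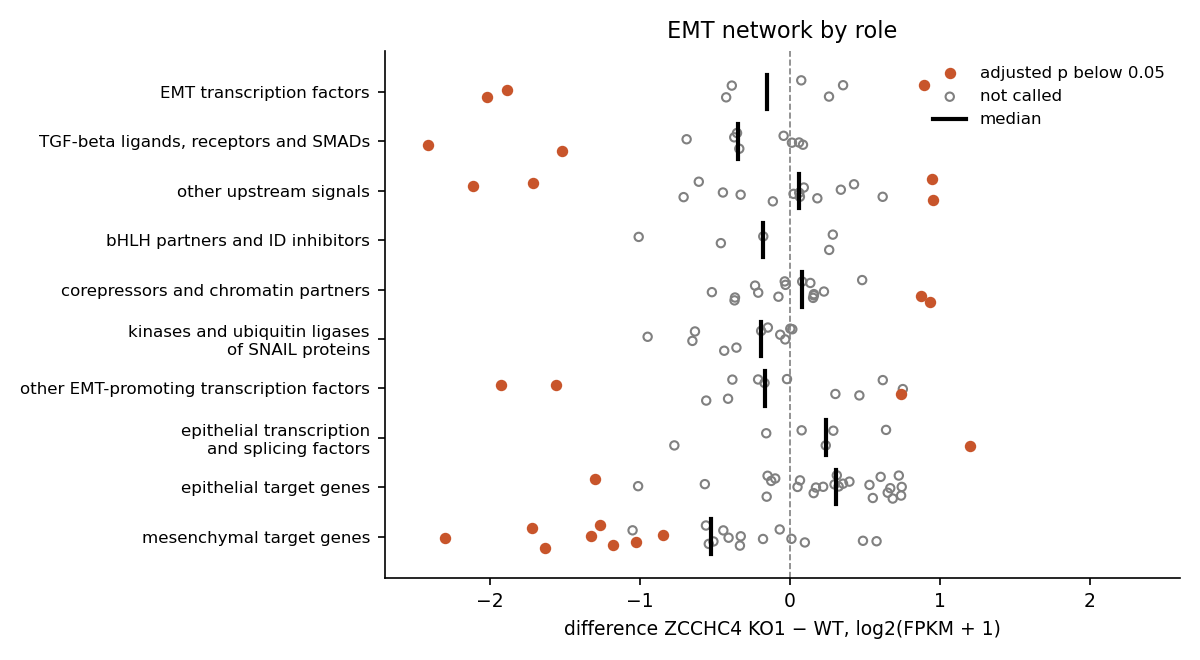
Difference between ZCCHC4 KO1 and WT on the log2(FPKM + 1) scale for each tested gene of the EMT transcription factors and of the 9 lists by role; orange points have an adjusted p below 0.05, open points were not called and the black bar is the median of a list. The medians run from -0.52 in the mesenchymal targets to 0.31 in the epithelial targets.

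Of the 14 fibroblast and stellate cell markers, 10 are also mesenchymal targets. In the 13 with a row, the summed level was 36.2 and 31.4 FPKM in WT and 12.9 and 15.5 FPKM in ZCCHC4 KO1. Of the 6 tested ones 3 were lower (FAP, COL1A1 and COL3A1), against 4.48% of all tested genes. The part of such cells in the values of the mesenchymal targets was not tested. The other 3 tested markers, PDGFRB, ACTA2 and LUM, were at 1.94, 1.68 and 1.86 FPKM in WT replicate 1 and were not called, and the 7 that were not tested, COL1A2, DCN, DES, GFAP, THY1, RGS5 and LRAT, stayed below 1 FPKM in all 4 libraries. Endothelial and blood cell markers summed to 16.9 and 18.5 FPKM in WT and 13.7 and 13.1 FPKM in ZCCHC4 KO1, of which CD68 made up most. Of 10 biliary and simple epithelial markers 4 were tested and none was called.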

How the data were processed

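RNA-seq of 2 WT and 2 ZCCHC4 KO1 libraries was used. The authors aligned reads to GRCh38 with Bowtie2 and deposited FPKM values from RSEM, to 2 decimals, with 1 column per library. Versions, gene annotation, read filters and strand are not given in the sources used here. The study's methods name the BGISEQ-500 platform, whereas the labels name an Illumina HiSeq. All value columns matched a sample title.

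RefSeq (GRCh38.p14) gave symbols and positions and matched 16384 of 16658 identifiers. GC content was taken from the longest GENCODE v44 transcript. Genes with an FPKM of at least 1 in at least 2 libraries were compared as log2(FPKM + 1) by limma, version 3.58.1, under R 4.3.3 (lmFit, eBayes with a trend, Benjamini-Hochberg adjustment over 10726 genes), which was tested on simulated data. The simulated noise was independent for each library, without the GC-linked replicate differences seen here. The simulation therefore cannot give the rate of false calls in these libraries. No count model was applied to FPKM. The members and lists were chosen with earlier results of these data known. The genes named are the members, ZCCHC4, the up to 4 tested genes of each list by role with the smallest p, and CDH1, CDH2, VIM, FN1, EPCAM and GRHL2. Other names were chosen after their values were seen. A further gene of the rule is not reported here.

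The alternatives were another pseudocount, filter, scaling, variance trend or call rule, a replicate block, removal of the GC trend (natural spline, 4 degrees of freedom), and leaving out each library.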

Additional observations from a re-analysis of the deposited data

How the results depend on the processing

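The labels share only replicate numbers, and the differences within the groups had a Pearson correlation of -0.787 across genes. SNAI2 and FOXC2 passed the filter through WT alone. They were called lower in each alternative with a value of their own (the crossed pairs gave counts only). Outside the fit with no filter their direction was fixed by the filter, so those calls are not independent support. With no filter the adjusted p was 0.0490 for SNAI2 and 0.0242 for FOXC2 from limma, the highest of these alternatives. Against 1 factor higher and 2 lower, there were 0 higher with no filter, with the replicate block, at a 2-fold change with no test, and with an adjusted p below 0.05 and that fold, and 0 higher and 0 lower at an adjusted p below 0.001. With a minimum FPKM of 5, where neither SNAI2 nor FOXC2 was tested, 0 were lower. Leaving out one library gave from 0 to 1 higher and 2 lower, with 0 higher without WT replicate 1, WT replicate 2 or ZCCHC4 KO1 replicate 1. Crossing the pairs, an alternative added after the data were seen, gave 3 higher and 4 lower, beside 2309 (21.5%) and 2986 (27.8%) of all tested genes.

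TWIST1 kept a log2 difference of 0.90 with no filter (adjusted p = 0.0751 from limma) and with the replicate block (adjusted p = 0.224), and had from 0.86 to 0.94 without one library. SNAI1 changed sign, to -0.020 with the GC trend removed, whether or not the block was added, and to a range of -0.19 to 0.34 without one library, where the sign changed without ZCCHC4 KO1 replicate 1. FOXC1, TWIST2, ZEB1 and ZEB2 kept their sign and stayed uncalled in each alternative that gave a value, other than the crossed pairing, which was taken as counts alone. ZCCHC4 lost its call with a pseudocount of 0.1 (-1.92, adjusted p = 0.0551 from limma), with no filter (-1.48, adjusted p = 0.115) and without ZCCHC4 KO1 replicate 1 (-1.15, adjusted p = 0.0514), and kept it without each of the other 3 libraries (range -1.81 to -1.15 over the 4). Of the 128 tested genes of the other lists, 6 were higher and 15 lower, beside 1.5% and 4.48% of all tested genes. Among these, BMP4 passed the filter through ZCCHC4 KO1 alone, and FAP, FOXQ1 and CLDN1 through WT alone. The replicate block ended the calls of JAG2, BMP4, FOSL1 and WTIP (adjusted p = 0.182, 0.109, 0.159 and 0.0990 from limma). With no filter there were 1 and 6, beside 0.492% and 1.57% of all genes of that fit. There were 13 higher after median-ratio scaling (3.93% of all tested genes), 12 after quantile normalization (4.34%) and 2 under the replicate block (0.998%). Once GC was removed there were 12 and 28 (6.53% and 12.3%), and with the block and GC removal 10 and 27 (4.32% and 9.18%). With the fold of 2 added 3 were higher, and at an adjusted p below 0.001 there were 0 and 0. The count higher also moved in each fit without one library, in the same direction as the share of all tested genes. In fits without one library the lone library is assumed to vary like the other group. Over 38 other named genes and 485 values, 31 lost a call, 48 gained one and 0 changed sign. Gains were most frequent for ID2 and MAL2, in 7 of 13 alternatives each. LATS2 gained a call in 5 of 13, and PRMT5 and ID3 in 4 of 13 each. Over all tested genes, 161 were higher and 480 lower, against 421 and 756 after median-ratio scaling, 466 and 721 after quantile normalization, 107 and 355 under the block, 82 and 262 with no filter, and 689 and 1304 with the GC trend removed. Except where fewer genes or libraries were tested, the cause was not tested. The 2 libraries per group and the unknown depth limit what low genes such as TCF4 can show.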

Other observations

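The genes in this paragraph were chosen after their values were seen. The forkhead genes FOXF2, FOXQ1 and FOXF1, which lie near FOXC1 or FOXC2, were called lower, as were 4.48% of all tested genes. FOXQ1 passed the filter through the WT libraries only, so its direction was fixed by the filter. FOXC1 itself had a log2 difference of 0.26 and was not called. The nearest tested genes, GMDS at 0.0139 Mb from FOXC1 and MTHFSD at 0.0366 Mb from FOXC2, were not called. Their log2 differences were -0.02 and -0.05. FOXF2, which lies 0.220 Mb from FOXC1, fell from 47.21 and 46.42 FPKM in WT to 18.73 and 19.64 FPKM in ZCCHC4 KO1 (log2 difference -1.24, adjusted p = 0.0109 from limma), and FOXQ1 lies 0.298 Mb from FOXC1. FOXF1, a mesenchymal forkhead factor that lies 0.0563 Mb from FOXC2, fell from 7.05 and 6.05 to 1.19 and 1.62 FPKM (log2 difference -1.65, adjusted p = 0.0151 from limma). HDAC9, a histone deacetylase gene that starts 1.03 Mb from TWIST1, was the one neighbour of TWIST1 called higher, with 0.15 and 0.08 FPKM in WT and 2.65 and 4.16 FPKM in ZCCHC4 KO1 (log2 difference 1.96, adjusted p = 0.0123 from limma). It passed the filter through the ZCCHC4 KO1 libraries only, so its direction was fixed by the filter. ITGB1, which lies 1.58 Mb from ZEB1, fell from 166.96 and 105.30 to 32.86 and 53.94 FPKM (adjusted p = 0.0410 from limma). Its calls in the alternatives are not given.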
